A study of Mus musculus with 4 samples.

Results

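Ccl2, Ccl7, Ccl8 and Ccl12 encode chemokines that draw monocytes and related cells, and Ccr2 encodes the receptor through which monocytes respond to Ccl2, Ccl7 and Ccl12. These 5 genes were chosen by symbol from the 32285 genes in the count tables, and all 5 were found. They were followed in single cells of ascites, the fluid that collects in the peritoneal cavity with ovarian tumors. Ascites came from female FVB mice 6 weeks after injection of Br-Luc tumor cells, which lack p53 and brca1 and carry myc and myristoylated Akt. Mice had received either a control siRNA (labelled siCont) or an siRNA against Fxr1 (siFXR1-LNA), and the paper describes both as LNA-modified. Each was given in jetPEI, a polymer that carries nucleic acids into cells, and 2 libraries were made per group. The methods state that the ascites of 3 mice was pooled for a sample, so that differences between single mice cannot be seen and the spread between libraries is that between pools. The injected cells are 1 engineered line, which limits the model to that genotype.

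As background, Ccl2 and Ccl7 are made by many cells upon inflammatory signals, such as stromal cells, monocytes and macrophages. Ccr2 carries classical monocytes out of the bone marrow into tissue, and its mRNA is usually lost as these cells mature into macrophages. Mouse Ccl8 also acts through another receptor, Ccr8, and its mRNA is known from resident macrophages that carry Lyve1, a hyaluronan receptor, and Folr2, a folate receptor. Nos2 encodes the inducible nitric oxide synthase of inflammatory macrophages.

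The 4 chemokine genes lie in 1 cluster on the plus strand of chromosome 11 of GRCm38 (mm10), which spans 81.2 kb and holds 5 protein-coding genes in the order Ccl2, Ccl7, Ccl11, Ccl12 and Ccl8. Ccl2 (ENSMUSG00000035385) runs from 82035571 to 82037453 and overlaps Gm17268, a gene annotated on the minus strand. Ccl7 (ENSMUSG00000035373) runs from 82045712 to 82047525, Ccl12 (ENSMUSG00000035352) from 82101845 to 82103400 and Ccl8 (ENSMUSG00000009185) from 82115185 to 82116799. Each has at most 3 exons in a transcript. Ccr2 (ENSMUSG00000049103) lies on the plus strand of chromosome 9 from 124101950 to 124113557. The longest stretch that transcripts of 2 of these genes share is 23 bases, between Ccl2 and Ccl7.

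RefSeq promoter sequences (GRCm38.p6) were found for Ccl8, Ccl12 and Ccr2. The neighbours Ccl12 and Ccl8 are shown because their promoters hold the same letters at nearly the same distance from the start site, while their levels by macrophage state, given below, were not the same. Windows of 30 bases on the plus strand are given 5′ to 3′, with the shared letters in capitals.
Ccl12, chr11:82101706-82101735: tctggctgagaGGAAATCAcccctggggtc
Ccl8, chr11:82115046-82115075: tccagctgccgGGAAATCAtctcatgatct
Ccl12, chr11:82101803-82101832: tctttgtgtctTATAAAAGtcagatggaac
Ccl8, chr11:82115142-82115171: tccctgctcccTATAAAAGgcagattagag
GGAAATCA began 128 bases before the start site in both genes, and TATAAAAG 31 bases before it in Ccl12 and 32 in Ccl8. The letters were picked after both promoters had been seen. Searched on both strands, GGAAATCA was in 1.22% and TATAAAAG in 1.71% of 32851 promoters of this length, and neither was in the Ccr2 promoter.

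The libraries labelled siCont replicates 1 and 2 and siFXR1-LNA replicates 1 and 2 held 78179267 to 113606837 UMIs, where a UMI marks 1 captured mRNA molecule. After limits on genes and mitochondrial UMIs, 16874 to 54344 barcodes were kept per library. Fxr1, the siRNA's target, was not lower over all kept cells in the libraries labelled siFXR1-LNA. It had 55.8 and 33.9 CPM (a gene's UMIs per 1000000 UMIs of the cells concerned) in all kept cells of the siCont libraries, against 104 and 71.8 in the siFXR1-LNA libraries. Hemoglobin genes held 30.5% and 43.0% of UMIs in the siCont libraries, against 10.2% in each siFXR1-LNA library, which lowers the siCont values. Per 1000000 UMIs without hemoglobin, Fxr1 had 80.4 and 59.4 against 116 and 80.0, with overlap. Groups are therefore named below by their labels only. In macrophages the log2 fold change of Fxr1 was 0.34 ± 0.10 (SE, edgeR adjusted p = 0.0966). The paper, which left out 1 siFXR1-LNA replicate, reports lower Fxr1 in epithelial cells of the siFXR1-LNA group. Values of Fxr1 in the tumor gate are not given here. The library siFXR1-LNA replicate 1 stood apart, with a median of 1349 UMIs per barcode and 30295 barcodes of no type, and the called results of the 5 genes between libraries, and between states set by the rule that follows, are given below also without it. Pairs of libraries shared 3.41% to 7.84% of the smaller library's kept barcodes.

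Each kept barcode was given the type whose marker genes had most UMIs in it. Macrophages (10 markers, among them Adgre1, Csf1r, Cd68 and the C1q genes) numbered 4111, 1996, 2473 and 2903 in siCont replicates 1 and 2 and siFXR1-LNA replicates 1 and 2, and 0 of the 10 markers were at 0 in any library. Summed macrophage markers reached 14250 and 12960 CPM in the siCont libraries, against 6486 and 8814 in the siFXR1-LNA libraries. The macrophages were split into a Nos2 state (at least 2 Nos2 UMIs), a Lyve1/Folr2/Ccl8 state (at least 3 UMIs of these genes together) and other macrophages. The Nos2 state held 0 of 4111 and 0 of 1996 macrophages in the siCont libraries, which allows shares of up to 0.073% and 0.15%. It held 29.2% and 28.1% in the siFXR1-LNA libraries. The Lyve1/Folr2/Ccl8 state held 39.3% and 31.8% of macrophages in the siCont libraries, against 4.00% and 11.1% in the siFXR1-LNA libraries. After thinning to 2000 UMIs per cell, the Nos2 state held 13% and 11.5% in the siFXR1-LNA libraries, and the Lyve1/Folr2/Ccl8 state held 18.0% and 10.4% against 1.09% and 2.24%. Both shares thus lay apart between the groups, and the exact permutation test of 2 libraries against 2 cannot give a p below 0.3333. Since Ccl8 takes part in this rule, its level in the states is a description.

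Macrophages held most UMIs of the chemokines in the siCont libraries, from 56.5% and 71.4% of all Ccl2 UMIs to 83.2% and 79.7% of all Ccl8 UMIs. In the siFXR1-LNA libraries they held 32.6% and 51.9% of Ccl2 and 48.0% and 86.3% of Ccl8. The macrophage share of Ccr2 was 56.1% and 62.7% against 54.9% and 61.6%, with overlap. The Nos2 state held 14.1% and 21.6% of Ccl2 UMIs in the siFXR1-LNA libraries and 3.72% and 3.59% of Ccr2 UMIs. Erythroid barcodes held 21.7% and 12.8% of Ccl2 UMIs in the siCont libraries at a level of 18.6 and 8.58 CPM, beside 11.2 and 5.32 in B cells. These UMIs were read as background.

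**Figure D1:**
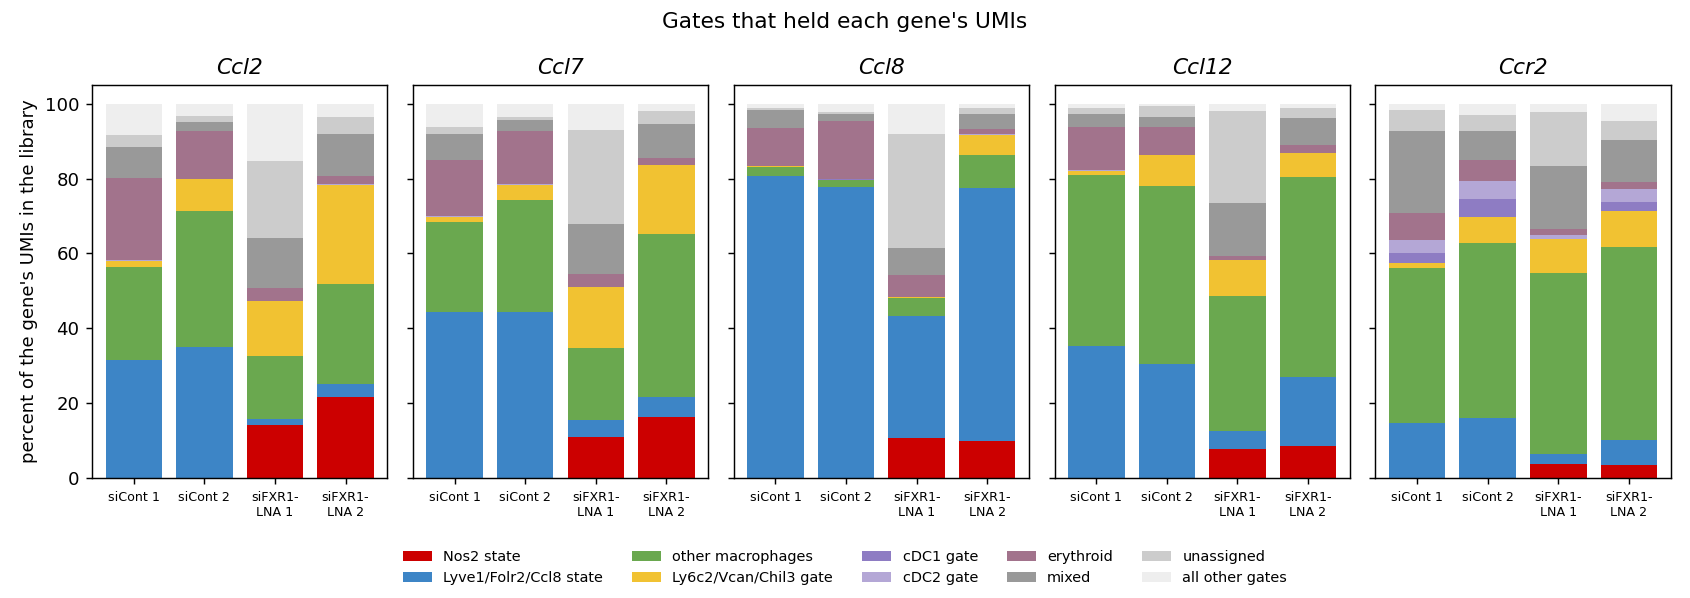
Share of each gene's UMIs (y axis, percent of all its UMIs in kept barcodes) held by each gate in the 4 libraries (x axis). The Lyve1/Folr2/Ccl8 state held 80.8% and 77.6% of Ccl8 UMIs in the siCont libraries, against 32.7% and 67.8% in the siFXR1-LNA libraries, where 30.5% of Ccl8 UMIs of replicate 1 lay in unassigned barcodes.

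Ccl2, the prototype ligand of Ccr2, had 91.1 and 127 CPM in macrophages of the siCont libraries and 113 and 137 in those of the siFXR1-LNA libraries. The 2 groups overlapped, and the log2 fold change was 0.39 ± 0.21 (SE, edgeR adjusted p = 0.266). Ccl7, a ligand of the same receptor, had 55.5 and 71.2 against 25.8 and 47.0. These values did not overlap, but the log2 fold change of -0.60 ± 0.30 did not pass (edgeR adjusted p = 0.241). Ccl8 had 61.9 and 15.7 against 9.0 and 18.9, so that siCont replicate 1 alone stood high, and its log2 fold change was -1.26 ± 0.69 (edgeR adjusted p = 0.272). Without siCont replicate 1 this value was 0.0089.

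Ccl12, a further ligand of Ccr2, had 70.2 and 58.4 CPM in macrophages of the siCont libraries and 9.75 and 27.9 in those of the siFXR1-LNA libraries. Its groups lay apart, with a log2 fold change of -1.56 ± 0.47 (SE, edgeR adjusted p = 0.0937). Ccr2 had 215 and 350 CPM against 100.5 and 127, and a log2 fold change of -1.12 ± 0.28 (edgeR adjusted p = 0.0677). Neither passed the threshold of 0.05 in this test, while DESeq2 called both (adjusted p = 0.00268 for Ccl12 and 0.00101 for Ccr2), as did edgeR without a filter on low counts. Without that filter, 3377 genes were called. The count over all genes is not given here for DESeq2. With the filter, 0 of the 5 genes were called in macrophages by edgeR, beside 1736 of 14118 genes tested (12.3%). Of the 5, Ccl12 and Ccr2 had an unadjusted p under 0.05, a cutoff that more than 12.3% of all genes met. It thus does not set these 2 genes apart. The count of 1736 was 326 without siCont replicate 2, 721 without siCont replicate 1, 10 without siFXR1-LNA replicate 1 and 1 without siFXR1-LNA replicate 2. Hemoglobin genes in macrophages, which mark RNA from other cells, moved with the groups, at 66640 and 46420 CPM against 25130 and 10790, with 3 or 4 of 10 genes at 0. With hemoglobin genes left out, the log2 fold changes of Ccl12 and Ccr2 were -1.56 and -1.12, but this fit does not remove other RNA that came from other cells. The 3 markers Ly6c2, Vcan and Chil3 summed to 186 and 759 against 1305 and 1167 CPM in macrophages, and 10 neutrophil markers to 60.9 and 88.8 against 306 and 343, with 0 of these genes at 0. Their part in the values of the 5 genes was not tested.

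The share of macrophages with a UMI was compared at 1000 UMIs per cell. Ccr2 was detected in 18.0% and 25.6% of macrophages of the siCont libraries and in 9.55% and 10.1% of those of the siFXR1-LNA libraries. Without thinning, at median depths of 5393 to 8537 UMIs, the mean shares were 50.4% and 22.3%. Ccl12 was detected in 3.99% and 3.68% against 1.06% and 2.06%, and Ccl7 in 2.71% and 4.91% against 2.11% and 2.27%. For these 3 genes the libraries did not overlap between groups (two-sided exact permutation test, p = 0.3333, the smallest that 2 against 2 libraries can give). The share of all genes that lay apart in this way was not computed, so this count says little about these 3 genes. Ccl2 was detected in 5.50% and 8.89% against 7.36% and 6.97%, with overlap. B cells, which should lack these transcripts, showed at most 1.5% for any of the 5 genes at this depth. Ccl8 shares were 0.36%, 0.57% and 0.94% in siCont replicate 2 and the siFXR1-LNA libraries. Their intervals overlapped those of the B cells of the same libraries, as did that of the Ccl12 share of 1.06%. These shares thus lay near background at this depth. Overlap of intervals does not decide whether they differ from it, and that was not tested.

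**Figure D2:**
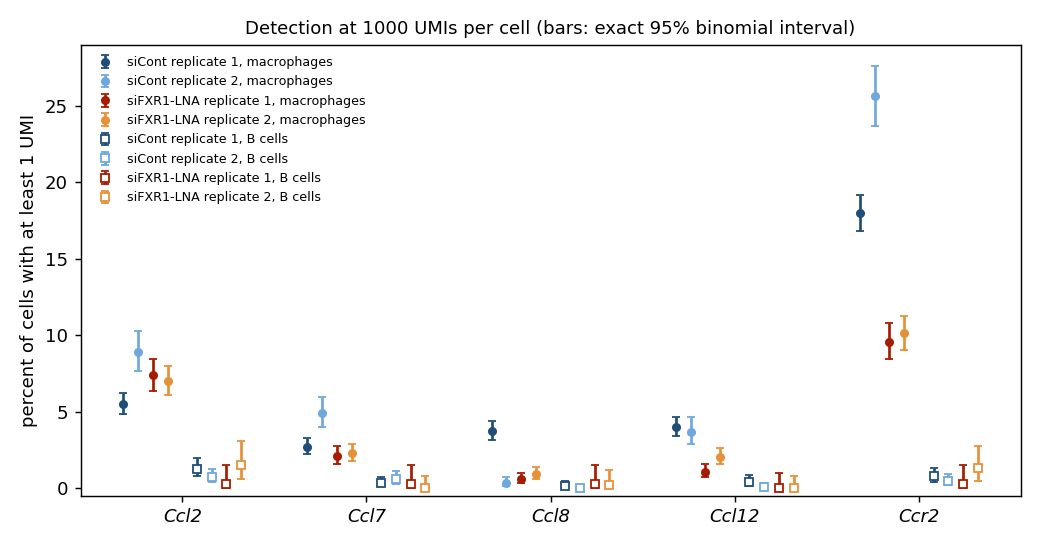
Percent of macrophages (filled circles) and B cells (open squares) with at least 1 UMI of each gene after thinning to 1000 UMIs (y axis), with exact 95% binomial intervals that cover counting error only. Ccr2 lay at 18.0% and 25.6% in the siCont libraries and at 9.55% and 10.1% in the siFXR1-LNA libraries, above the B cells of each library.

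The chemokine UMIs were concentrated in few cells. The 5% of macrophages with most UMIs held 52.6% to 73.6% of Ccl2 UMIs, 74.4% to 97.4% of Ccl7 UMIs and 85.9% to 100% of Ccl8 UMIs, against 23.8% to 50.4% of Ccr2 UMIs. These shares depend on detection. Ccl8 had a UMI in 1.90%, 1.86% and 4.34% of macrophages in siCont replicate 2 and the siFXR1-LNA libraries, which fixes its share there at 100%. In siFXR1-LNA replicate 1, 19.65% of macrophages had a Ccl2 UMI and 20.78% a Ccr2 UMI. The shares there were 68.5% and 50.4%. In siCont replicate 2, 1 macrophage held 136 of 271 Ccl8 UMIs (50.2%). In siFXR1-LNA replicate 2, 1 macrophage held 132 of 1160 Ccl7 UMIs (11.4%). Levels of Ccl8 and Ccl7 therefore rest on small numbers of cells. At 2000 UMIs per cell, Ccl7 was detected in 22.2% and 24.9% of macrophages with a Ccl2 UMI in the siCont libraries and in 3.00% and 4.47% of those without one. In the siFXR1-LNA libraries these shares were 14.3% and 18.2% with Ccl2 and 1.28% and 2.15% without. Ccr2 was detected in 11.7% of 213 and 10.5% of 19 macrophages with a Ccl8 UMI in the siCont libraries, against 29.4% and 40.1% of those without one. In the siFXR1-LNA libraries it was in 0 of 23, which allows up to 13%, and in 13.7% of 51, against 16.6% and 16.3%. These differences were not tested.

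Between macrophage states, Ccr2 was lowest in the Nos2 state. It had 16.5 and 19.2 CPM there, against 163 and 217 in other macrophages of the same siFXR1-LNA libraries. The log2 fold change of -3.20 ± 0.17 (SE) passed the test with the library as a block (edgeR adjusted p = 6.98e-08), as did 21.6% of all genes tested. Ccr2 in the Lyve1/Folr2/Ccl8 state had 116 and 228 CPM in the siCont libraries, against 115 and 109 in the siFXR1-LNA libraries, against 311, 428, 163 and 217 in other macrophages. It was lower in this state in 4 of 4 libraries, with a log2 fold change of -1.05 ± 0.11 (edgeR adjusted p = 1.99e-05, 17.1% of all genes called). Between the Nos2 and the Lyve1/Folr2/Ccl8 state the log2 fold change of Ccr2 was -2.15 ± 0.17 (edgeR adjusted p = 7.01e-07, 25.7% of all genes called). Without siFXR1-LNA replicate 1 the 3 values were -3.20, -1.13 and -2.07, and all passed.

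Ccl12 was also low in the Nos2 state. It had 3.80 and 7.67 CPM there, against 13.3 and 37.7 in other macrophages and 22.3 and 52.4 in the Lyve1/Folr2/Ccl8 state of the same libraries. Its log2 fold change from other macrophages was -2.01 ± 0.22 (SE, edgeR adjusted p = 2.77e-05) and that from the Lyve1/Folr2/Ccl8 state -2.04 ± 0.24 (edgeR adjusted p = 2.06e-05). Without siFXR1-LNA replicate 1 these values were -2.14 and -2.13, and both passed. Between the Lyve1/Folr2/Ccl8 state and other macrophages Ccl12 differed by 0.03 ± 0.13 on the log2 scale (edgeR adjusted p = 0.917), a value whose sign changed with the processing.

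Ccl2 had 119 and 148 CPM in the Nos2 state, 127 and 74.6 in the Lyve1/Folr2/Ccl8 state and 108 and 144 in other macrophages of the siFXR1-LNA libraries. These ranges overlapped, and the log2 fold change from other macrophages to the Nos2 state was 0.56 ± 0.22 (SE, edgeR adjusted p = 0.0895). This fold is larger than the CPM of the same 2 states show, since edgeR rescales the sums (TMM) and CPM are not rescaled. Ccl7 had 20.0 and 30.7 in the Nos2 state against 26.4 and 63.7 in other macrophages (-0.29 ± 0.33 on the log2 scale, edgeR adjusted p = 0.581). In the Lyve1/Folr2/Ccl8 state Ccl7 had 73.3 and 109 in the siCont libraries, against 74.8 and 31.5 in the siFXR1-LNA libraries. It was higher than in other macrophages in 3 of 4 libraries and lower in siFXR1-LNA replicate 2, with 0.61 ± 0.26 on the log2 scale (edgeR adjusted p = 0.123). Without siFXR1-LNA replicate 2 that value was 1.08, and that of Ccl2 rose from 0.05 to 0.36. Both then passed (edgeR adjusted p = 5.52e-06 for Ccl7 and 0.0221 for Ccl2).

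Ccl8 had 123, 39.2, 143 and 121 CPM in the state that its own UMIs help to define, and 0.66 to 3.87 in other macrophages. Of the cells in that state, 1.10% to 10.1% met the rule only through Ccl8. In the Nos2 state it had 4.79 and 5.57. When the state was defined by at least 2 UMIs of Lyve1 and Folr2, which leaves out Ccl8 and also lowers the limit from 3 UMIs, Ccl8 was higher in it than in other macrophages by 1.69 ± 0.52 on the log2 scale (SE, edgeR adjusted p = 0.0425). This value was not computed without single libraries.

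**Figure D3:**
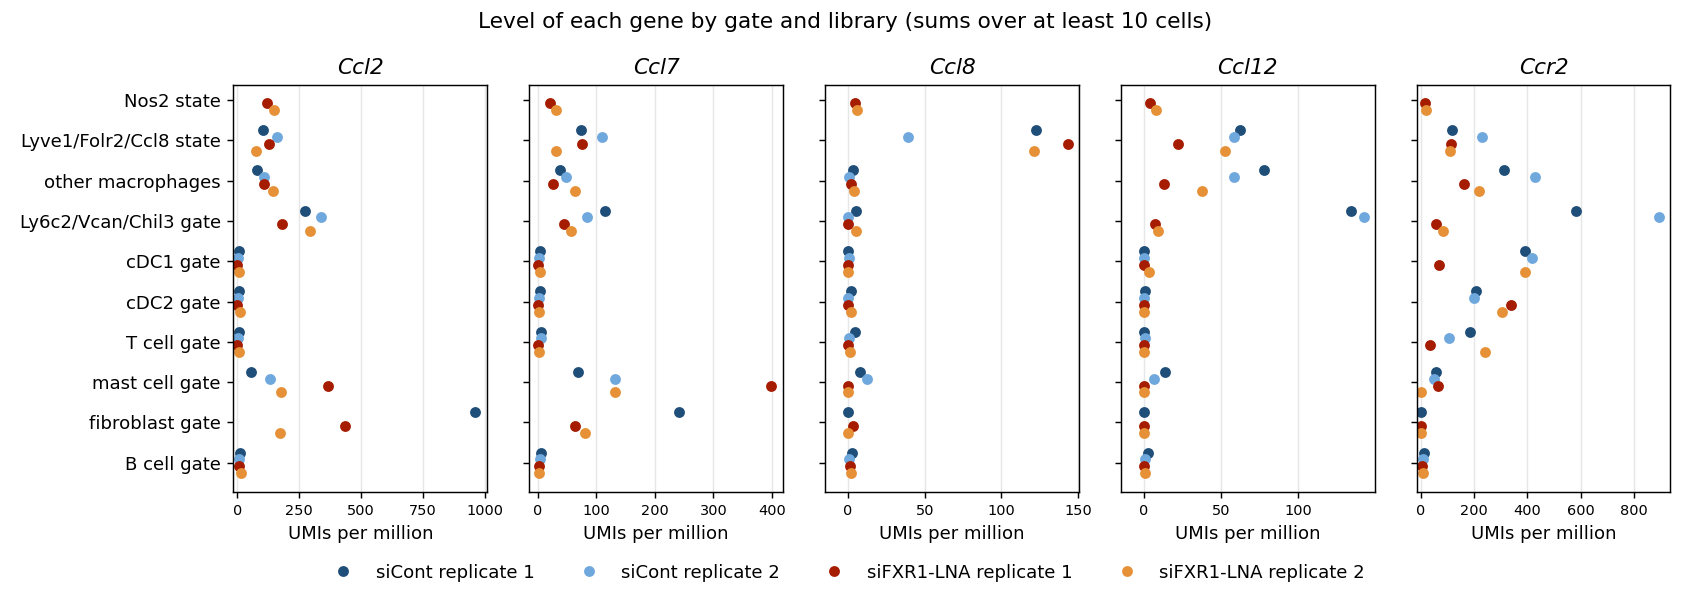
CPM (x axes, 1 per gene) in the gates named on the y axis, with 1 point for each library with at least 10 cells. Ccr2 and Ccl12 lay far lower in the siFXR1-LNA than in the siCont libraries in the Ly6c2/Vcan/Chil3 gate, while Ccl8 lay between 39.2 and 143 CPM in the Lyve1/Folr2/Ccl8 state.

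Within a state, 0 of 4 genes (Ccl8 is left out) passed between groups. In other macrophages the log2 fold change was -0.89 ± 0.23 for Ccr2 (SE, edgeR adjusted p = 0.0781) and -1.33 ± 0.45 for Ccl12 (edgeR adjusted p = 0.133), beside 7.5% of all genes called. Both had an unadjusted p under 0.05, as had more than 7.5% of all genes, and DESeq2 called both. In the Lyve1/Folr2/Ccl8 state the values were -0.56 ± 0.34 for Ccr2 and -0.48 ± 0.32 for Ccl12, beside 0.07% of all genes called, where 0 of the 4 genes had an unadjusted p under 0.05 and DESeq2 called 0. The change of Ccl2 differed between these states by -1.07 ± 0.22 on the log2 scale (edgeR adjusted p = 0.0141, 2.12% of all genes called), without siFXR1-LNA replicate 1 by -1.43 (edgeR adjusted p = 0.00109) and without siFXR1-LNA replicate 2 by -0.38 (edgeR adjusted p = 0.52). For Ccr2 and Ccl12 the differences of the change were 0.28 ± 0.18 (edgeR adjusted p = 0.57) and 0.65 ± 0.19 (edgeR adjusted p = 0.0987).

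In the gate defined by Ly6c2, Vcan and Chil3, genes of classical monocytes, Ccr2 had 583 and 891 CPM in the siCont libraries, against 58.6 and 83.8 in the siFXR1-LNA libraries. The groups lay far apart, with a log2 fold change of -3.17 ± 0.28 (SE, edgeR adjusted p = 7.2e-05). Ccl12 had 135 and 143 against 6.87 and 9.24 (-3.87 ± 0.25, edgeR adjusted p = 1.07e-05). Of the 5 genes, these 2 were called, beside 19.7% of all genes tested. Without siFXR1-LNA replicate 1 the values were -2.85 and -3.60, and both passed. Ccl2 had 274 and 338 against 182 and 295, with overlap (-0.16 ± 0.27, edgeR adjusted p = 0.727), and Ccl7 had 115 and 83.8 against 43.9 and 56.1 (-0.67 ± 0.24, edgeR adjusted p = 0.0873).

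The cells in this gate were not of one make-up. It held 45 and 103 cells in the siCont libraries, against 689 and 709 in the siFXR1-LNA libraries. Ly6c2 had 7883 and 6873 CPM against 2215 and 2346, and Chil3, a chitinase-like gene, had 858 and 1678 against 3603 and 4154. Arg1, the arginase of alternatively activated and tumor macrophages, had 239 and 212 against 4216 and 4626. Nos2 UMIs of 2 or more were in 0 of 45 and 0 of 103 cells of the siCont libraries, which allows up to 6.67% and 2.91%, and in 42.1% and 44.6% of cells of the siFXR1-LNA libraries. The part of this difference in the values of Ccr2 and Ccl12 was not tested, and the gate is therefore named by its genes. With both gates pooled, an alternative chosen after seeing the data, Ccr2 differed by -1.27 and Ccl12 by -1.75 on the log2 scale (edgeR adjusted p = 0.0555 and 0.0587).

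**Figure D4:**
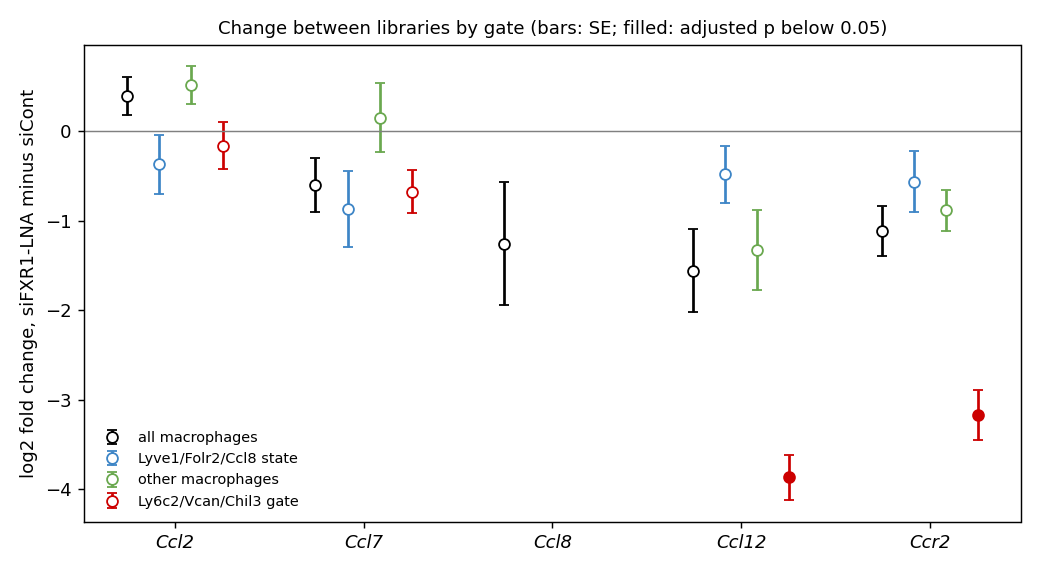
Log2 fold change of siFXR1-LNA minus siCont libraries (y axis) with its SE for each gene in all macrophages, 2 macrophage states and the Ly6c2/Vcan/Chil3 gate. Filled points, Ccl12 at -3.87 and Ccr2 at -3.17 in that gate, had an edgeR adjusted p below 0.05. Ccl8 is shown for all macrophages only.

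Among other types, Ccr2 was found in dendritic cells and T cells. In the cDC1 gate it had 389 and 417 CPM in the siCont libraries, against 68.0 and 390 in the siFXR1-LNA libraries, the lowest from 13 cells (-0.49 ± 0.37 on the log2 scale, edgeR adjusted p = 0.772, 0.384% of all genes called). In the cDC2 gate it had 209 and 201 against 337 and 304 (0.55 ± 0.19, edgeR adjusted p = 0.28, 1.8% of all genes called). In the T cell gate it had 184 and 106 against 35.1 and 241, with overlap (0.26 ± 0.51, edgeR adjusted p = 0.969, 1.7% of all genes called). Of the 5 genes, 0 of 3 tested were called in neutrophils (1.45% of all genes called), 0 of 3 in B cells (1.17%) and 0 of 5 in erythroid cells (3.15%). In B cells and erythroid barcodes the genes lay near background, while Ccl2 in neutrophils had 9.13 to 66.8 CPM. Ccl2 and Ccl7 were high in the fibroblast gate, where Ccl2 had 963 CPM in the 21 cells of siCont replicate 1 and 435 and 172 in the siFXR1-LNA libraries. In the mast cell gate Ccl2 had 57.4 to 366 and Ccl7 68.9 to 400 CPM, where the highest values came from 31 cells. Over the 4 libraries the ranges of Ccl2 in the fibroblast, Ly6c2/Vcan/Chil3 and mast cell gates overlapped from 1 to the next in order of the mean.

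In the gate of tumor or mesothelial markers Ccl2 had 17.1 and 8.57 CPM in the siCont libraries, against 54.8 and 33.2 in the siFXR1-LNA libraries. The siCont values, from 52 and 6 UMIs, lay at the level of erythroid barcodes (18.6 and 8.58 CPM) that was read as background, so that the fold is taken against background. Ccl2 passed there, with a log2 fold change of 1.84 ± 0.40 (SE, edgeR adjusted p = 0.016, 8.99% of all genes called). Without siFXR1-LNA replicate 1, whose 3867 cells made up most of this gate, the value was 1.22 and did not pass (edgeR adjusted p = 0.149). Over all kept cells 0 of 17939 genes were called by edgeR (3499 had an unadjusted p under 0.05, and DESeq2 called 1995), and 0 of the 5 genes had an unadjusted p under 0.05.

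Genes with the most similar pattern were named from 55 sums of type and library, with Pearson's r of log2(CPM + 1) over 9167 genes. These sums share libraries, depth and free RNA, so that r is a description. Ccl2 was most like Ccl7 (r = 0.87), Fam129b (0.85) and Fn1 (0.80), and Ccl7 most like Ccl2, Emilin1 (0.76) and Fn1 (0.75). Ccl8 was most like Folr2 (0.83), Lyve1 (0.82) and Cbr2 (0.78), of which the first 2 define its state. Ccl12 was most like Cmklr1 (0.85), Lyz2 (0.84) and Ltc4s (0.84). Among the genes most like Ccr2 were Itgb2 (0.83) and Tnfaip8l2 (0.82). Between Ccr2 and Ccl2, r was -0.09.

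Other CC chemokines in macrophages moved both ways, with 2 of 8 tested genes higher and 1 lower in the siFXR1-LNA libraries, beside 6.48% of all genes higher and 5.82% lower. Ccl5, a chemokine for T cells and monocytes, had 81.7 and 74.7 CPM against 526 and 469 (2.88 ± 0.16 on the log2 scale, edgeR adjusted p = 0.00617), and Ccl3 rose as well. Ccl6 had 5131 and 5938 against 1956 and 2299 (-1.18 ± 0.23, edgeR adjusted p = 0.0383). Ccl9 and Ccl24 had log2 fold changes of -0.48 and -0.79 and did not pass. The list's median was -0.64, against 0.003 over all genes tested. Of the other chemokine receptors, 0 of 3 tested passed by edgeR, with log2 fold changes of -0.35 for Ccr1 and -1.43 for Cx3cr1. In the Nos2 state 3 of 3, Ccr1 and Cx3cr1 among them, were lower than in other macrophages, beside 10.3% of all genes.

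Among genes of NF-kB and interferon signalling, 1 of 10 was higher and 2 were lower in macrophages of the siFXR1-LNA libraries, beside 6.48% of all genes higher and 5.82% lower, so that the share of higher genes was near that of all genes. Nfkbia, an inhibitor that NF-kB itself induces, had 158 and 263 CPM against 589 and 656 (1.76 ± 0.29 on the log2 scale, edgeR adjusted p = 0.0287). Irf7, an interferon-regulated transcription factor, had 288 and 397 against 27.4 and 46.1 (-3.02 ± 0.32, edgeR adjusted p = 0.0146). Nfkb1, which encodes an NF-kB subunit, differed by -0.10 and did not pass. Of the cytokines known to induce the chemokines, 1 of 4 tested was higher, against the same 6.48% of all genes. Il1a had 8.15 and 4.63 against 30.9 and 37.7 CPM (2.62 ± 0.28, edgeR adjusted p = 0.0149), while Il1b, Tnf and Il6, at 1.22, 0.78 and -0.67 on the log2 scale, did not pass.

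Of 4 genes for proteins that destabilise chemokine mRNA, 2 were higher, beside 6.48% of all genes tested. Zfp36l1 had 139 and 163 against 306 and 338 CPM (1.29 ± 0.16 on the log2 scale, edgeR adjusted p = 0.0179), and Zc3h12a, which encodes an RNase, had 17 and 17.7 against 42.0 and 45.8 (1.54 ± 0.12, edgeR adjusted p = 0.0101). Zfp36 and Zfp36l2 had 1.10 and 0.03 on the log2 scale and did not pass. Of growth factors and their receptors 0 of 5 tested passed by edgeR, beside 12.3% of all genes, with log2 fold changes of 0.14 for Csf1r, -0.67 for Csf2ra, 0.43 for Csf2rb and 0.85 for Csf1. None of the listed genes called in macrophages passed without siFXR1-LNA replicate 1 or without replicate 2, and their directions did not change. Zc3h12a, for one, then had 1.60 and 1.51 on the log2 scale (edgeR adjusted p = 0.078 and 0.057).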

How the data were processed

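Single cells of mouse ascites were profiled in 4 libraries with 10x 3′ chemistry. The labels name v2 in one place and v3.1 in another. The deposited tables give, for every barcode, each gene's UMI counts as whole numbers without normalization. Per the labels, the authors used Cell Ranger 7.0.0 and mm10. The methods name another Cell Ranger version and state that 1 siFXR1-LNA replicate was excluded from their analysis, without saying which. Both were used here. Of 32285 identifiers, 99.85% were found in GENCODE M21 (GRCm38).

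A barcode was kept where it held 100 to 4800 genes and no more than 15% of its UMIs were mitochondrial. Those with at least 30% hemoglobin UMIs were called erythroid. The others took the type whose panel, of 15, had most UMIs (at least 3, from at least 2 genes). Ties were left unassigned, and barcodes in which 3 times the sum of a panel of another lineage reached the leading sum were left out as mixed. No doublet caller was run. The panels, the genes described and the lists were chosen with earlier results of these data known.

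UMIs were summed per library and type, and compared with edgeR 4.0.16 (TMM, filterByExpr, quasi-likelihood test, Benjamini-Hochberg adjustment over all genes tested, threshold 0.05) where each library had at least 10 cells. Libraries were the replicates, and nothing says that more than the pools of 3 mice separates them. CPM were taken per total UMIs without TMM, so that a log2 fold change can differ from the ratio of the CPM printed beside it. States were compared with the library as a block. The Nos2 state was absent from the siCont libraries, so that fit held 10 sums in place of the 12 planned, and Nos2 contrasts rest on 2 libraries. On data simulated for the macrophage comparison (14118 genes), 18 of 98 genes changed 2-fold (18.4%) and 64 of 94 changed 4-fold (68.1%) were called. Beside these true calls, 14 unchanged genes were called falsely. Shares were compared by exact permutation after thinning to 1000 UMIs.

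Named genes are the 5 genes, Fxr1, Nos2, Lyve1, Folr2, for each list the up to 4 tested genes highest in macrophages, and for each of the 5 genes the 3 most similar. Arg1, Ly6c2, Vcan, Chil3, Ccl3 and single cells with high counts were added after their values were seen. Some genes that this rule names are not reported here. Alternatives were the replicate block, tests of all genes regardless of low counts, DESeq2 1.42.0, at least 500 or 1000 genes, a panel sum of at least 6, mixed barcodes kept, types by likelihood, no hemoglobin genes, states without Ccl8 (at least 2 UMIs of Lyve1 and Folr2), thinning to 2000 UMIs, and each library left out. R 4.3.3 and Python 3.11.15 were used.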

Additional observations from a re-analysis of the deposited data

Results flagged for a closer look

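The change of Ccl2 between the groups differed between macrophage states. It was lower in the Lyve1/Folr2/Ccl8 state than in other macrophages by -1.07 ± 0.22 on the log2 scale (edgeR's quasi-likelihood test of the interaction, adjusted p = 0.0141). Ccl2 had 103 and 160 CPM in that state in the siCont libraries, against 127 and 74.6 in the siFXR1-LNA libraries, while other macrophages had 79.4 and 106 against 108 and 144. The low value of siFXR1-LNA replicate 2 stands out, and without that library the difference was -0.38 (adjusted p = 0.52).

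Ccl2 was also found in the barcodes left out as mixed. In the main setting these belonged to no type and entered only the sums over all kept cells. It had 22.4 and 15.7 CPM there in the siCont libraries, against 36.4 and 59.5 in the siFXR1-LNA libraries, with a mean of 47.9 in the latter. Both libraries labelled siFXR1-LNA thus lay above both controls, and the difference was not tested.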

How the results depend on the processing

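Over 57 results and 716 values under other settings, 615 kept their direction and their side of the threshold. Ccr2 and Ccl12 in the Nos2 state against both other states, Ccr2 in the Lyve1/Folr2/Ccl8 state against other macrophages, and Ccr2 and Ccl12 in the Ly6c2/Vcan/Chil3 gate did so under every setting run. All values below are log2 fold changes, and causes were not tested. With no filter on low counts, values that passed were, in macrophages, -1.25 (Ccl8), -1.55 (Ccl12) and -1.11 (Ccr2), in other macrophages 0.50 (Ccl2), -1.34 (Ccl12) and -0.90 (Ccr2), in the Lyve1/Folr2/Ccl8 state -0.91 (Ccl7), between states 0.55 (Ccl2, Nos2 minus other), 0.51 (Ccl2, Nos2 minus Lyve1/Folr2/Ccl8), 0.60 (Ccl7, Lyve1/Folr2/Ccl8 minus other) and -0.90 (Ccl7, Nos2 minus Lyve1/Folr2/Ccl8), and for the difference of the change -1.36 (Ccl7) and 0.68 (Ccl12). DESeq2 called Ccl12 (-1.58) and Ccr2 (-1.12) in macrophages and Ccl12 (-1.34) and Ccr2 (-0.88) in other macrophages, gave -0.90 for the Ccl2 difference of the change, no longer past the threshold, and reversed Ccl2 in neutrophils (-0.14) and Ccr2 in T cells (-0.093).

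With types by likelihood, Ccl2 reversed in macrophages (-0.30) and other macrophages (-0.11), Ccl7 in other macrophages (-0.38) and the mast cell gate (-0.73), Ccr2 in neutrophils (0.13) and T cells (-0.020), Ccl12 between Lyve1/Folr2/Ccl8 state and other (-0.058) and Ccl2 between Nos2 and Lyve1/Folr2/Ccl8 state (-0.13). It called Ccl2 (0.41) and Ccl7 (0.87) for Lyve1/Folr2/Ccl8 minus other and Ccl7 (-1.39) for Nos2 minus Lyve1/Folr2/Ccl8, and lost Ccl2 in the tumor gate (0.43) and in the difference of the change (-0.32). Thinned to 2000 UMIs, reversed values were -0.67 (Ccl7, other macrophages), -0.28 and -0.19 (Ccl2, Nos2 minus other and minus Lyve1/Folr2/Ccl8), -0.088 (Ccl2) and -0.10 (Ccl12) for Lyve1/Folr2/Ccl8 minus other. Ccl7 then passed for Nos2 minus other (-1.60) and minus Lyve1/Folr2/Ccl8 (-2.09), and the Ccl2 difference (-1.16) no longer did. With states without Ccl8, where the limit was also lowered from 3 to 2 UMIs and the 2 changes cannot be told apart, Ccl2 in the Lyve1/Folr2 state (0.10) and Ccl12 between states (-0.19) reversed, the Ccl2 difference (-0.47) was lost and that of Ccl12 (0.74) passed. With mixed barcodes kept, Ccl2 for Nos2 minus other (0.67), Ccl7 in the Ly6c2/Vcan/Chil3 gate (-0.94) and the differences of Ccl7 (-1.23) and Ccl12 (0.80) passed. Ccl12 between Lyve1/Folr2/Ccl8 state and other was -0.0027 at 1000 genes and -0.0070 at a panel sum of 6, where the Ccl7 difference (-1.44) passed.

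The replicate numbers marked no shared batch in the labels, and 2 pairs cannot show pairing (r = 0.30 for the deviations of replicates 1). With the replicate block, Ccl7 (-0.64), Ccl12 (-1.71) and Ccr2 (-1.08) passed in macrophages, Ccr2 (-0.87) in other macrophages, and Ccl12 (-1.88) and Ccr2 (-1.53) over all kept cells. Genes called in macrophages numbered 3377 with no filter, 2670 with the replicate block, 543 by likelihood and 1 to 721 with a library left out, against 1736.

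Leaving out each library gave, for siFXR1-LNA minus siCont, -1.91 to 0.0089 (Ccl8) and -1.45 to -0.68 (Ccr2) in macrophages, -0.55 to 0.64 (Ccl7) and -1.12 to -0.61 (Ccr2) in other macrophages, -0.75 to 0.017 (Ccl2) and -0.97 to 0.0080 (Ccr2) in the Lyve1/Folr2/Ccl8 state, -0.53 to 0.23 (Ccl2) and -0.50 to 6.35 (Ccl8) in the Ly6c2/Vcan/Chil3 gate, -1.20 to 1.40 (Ccl2) in neutrophils, -0.27 to 0.98 (Ccl2) and -0.74 to 0.0028 (Ccr2) in B cells, -1.99 to 0.73 (Ccr2) in T cells, -2.67 to -0.059 (Ccr2) in cDC1, -0.025 to 1.74 (Ccl7) in the mast cell gate, 1.22 to 2.58 (Ccl2) in the tumor gate and -1.20 to 0.088 (Ccl7) over all kept cells. Between states it gave -0.15 to 0.36 (Ccl2), 0.35 to 1.08 (Ccl7) and -0.17 to 0.24 (Ccl12) for Lyve1/Folr2/Ccl8 minus other, and 0.062 to 0.72 (Ccl2) and -1.34 to -0.71 (Ccl7) for Nos2 minus Lyve1/Folr2/Ccl8. The difference of the change lay at -1.43 to -0.38 (Ccl2), -2.09 to 0.29 (Ccl7), 0.55 to 0.83 (Ccl12) and 0.10 to 0.57 (Ccr2). Where this left 1 library in a group, that library was assumed to vary like the others. With 2 libraries a group and UMIs held by few cells, changes of 2-fold were seldom called.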
